A study of Mus musculus with 10 samples.

Results

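Retnla and Mrc1, a pair of genes widely used as markers of alternatively activated (M2) mouse macrophages, were followed across 10 arrays of tumour-associated and peritoneal macrophages. The members were chosen by name: each is a feature whose single gene symbol in the platform table is Retnla or Mrc1. That gave 2 of the 6795 named genes, each with 1 feature (Entrez identifiers 57262 for Retnla and 17533 for Mrc1). Each array was a spotted cDNA array on which the RNA of 2 conditions competed, so a value is a ratio between conditions and gives no level in either one. The cells came from C57/6N mice aged 8 weeks and were the adherent cells of 2 sources in culture, the peritoneal exudate (PEC) and an implanted tumour (tumour-associated macrophages, TAM). On the arrays that hold TAM, the labels give the harvest as 3 weeks after a tumour was implanted, for PEC on the same array as well. The treated cells received 100 ng/mL of lipopolysaccharide (LPS), a bacterial cell wall component that activates macrophages, for 4 hours, and the others received none. The labels name no tumour type, no purification other than adherence and no genetic change.

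The 4 direct comparisons were untreated TAM against untreated PEC (4 arrays named TAM-b, TAM-3, TAM-8 and TAM-2R), TAM with LPS against PEC with LPS (2 arrays, TAM1 and TAM7), PEC with LPS against untreated PEC (2 arrays, PEC1 and PEC2) and TAM with LPS against untreated TAM (2 arrays, TAM-trial and TAM-16). Unless stated otherwise, values are log2 ratios. A negative value in TAM against PEC means less RNA in TAM, and a positive value in an LPS comparison means more RNA with LPS. Each direction is likely and not certain, because no label gives the dyes. It was read as channel 2 over channel 1, under which the 28 measured genes of a list of LPS-induced genes had a median of 1.83 on PEC1 and 3.33 on PEC2. Per the labels, TAM-2R and TAM1 had exchanged channels and were turned. Once turned, TAM1 had r = 0.293 with TAM7 across all features. The medians of those 28 genes were -1.81 on TAM1 and -1.55 on TAM7. For TAM-2R the values of r were lower, between 0.036 (TAM-3) and 0.101 (TAM-8). Without the turning, these r and the median on TAM1 would have the opposite sign. Whether the labels are right was not tested. The arrays of 1 comparison correlated weakly across all features (r from 0.036 to 0.329), and precision is limited by how few arrays each comparison had. The labels do not say that the arrays of a comparison came from separate animals or cultures, so p-values measure only the spread between arrays, which may be technical.

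Retnla encodes resistin-like molecule alpha, also called FIZZ1, a small secreted cysteine-rich protein. In mouse macrophages it is induced by interleukin-4 and interleukin-13, which signal through the interleukin-4 receptor and the transcription factor STAT6. Mrc1 encodes the mannose receptor CD206, an endocytic C-type lectin of the cell surface that takes up mannose-bearing glycoproteins and microbes. Both genes are read out as part of the M2 state, which the title of the series attributes to tumour-associated macrophages.

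The promoters are shown because Retnla is a known target of STAT6 and C/EBP factors and because the members had unlike ratios. The sequences are RefSeq's on GRCm38.p6, 250 bases before to 50 bases after the annotated start, 5′ to 3′ on the strand of the gene. Both members matched the promoter table by symbol. The window of Retnla is chr16:48842359-48842658 and that of Mrc1 is chr2:14229164-14229463, both on the plus strand. Capitals mark every match, on either strand, to 3 motifs: TTC and GAA with any 4 bases between them for STAT6, TTNNGCAA for C/EBP, and GGGA and CC with any 4 bases between them for NF-kB.
Retnla: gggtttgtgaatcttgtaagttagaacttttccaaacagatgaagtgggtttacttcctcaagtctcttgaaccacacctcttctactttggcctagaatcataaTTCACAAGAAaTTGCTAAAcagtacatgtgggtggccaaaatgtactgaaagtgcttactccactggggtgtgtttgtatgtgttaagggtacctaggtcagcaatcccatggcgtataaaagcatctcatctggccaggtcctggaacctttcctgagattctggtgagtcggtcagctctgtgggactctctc
Mrc1: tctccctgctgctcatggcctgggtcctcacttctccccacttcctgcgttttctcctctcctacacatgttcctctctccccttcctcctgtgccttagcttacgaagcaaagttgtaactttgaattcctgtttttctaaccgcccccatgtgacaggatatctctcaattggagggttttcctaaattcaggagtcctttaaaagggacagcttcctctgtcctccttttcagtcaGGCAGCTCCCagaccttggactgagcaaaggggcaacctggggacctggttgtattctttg
The Retnla window held 1 STAT6 match, TTCACAAGAA, at bases -145 to -136 from the start. It also held 1 C/EBP match, TTGCTAAA on the minus strand at bases -134 to -127, beside the first and not overlapping it, and no NF-kB match. The Mrc1 window held 1 NF-kB match, GGCAGCTCCC on the minus strand at bases -11 to -2, and no match to the other motifs. Among 32851 promoter windows of the same length, 7.0% held a STAT6 match, 10.8% a C/EBP match and 20.7% an NF-kB match. These matches describe letters and not bound sites.

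Retnla was far lower in untreated TAM than in untreated PEC, and Mrc1 did not pass the test. The comparison addressed how tumour macrophages differ from peritoneal macrophages before any stimulus. The Retnla log2 ratio of TAM over PEC was -3.18 on TAM-b, -5.47 on TAM-2R, -5.88 on TAM-3 and -5.71 on TAM-8. All 4 arrays lay well below 0, with TAM-b the least low of them. The mean was -5.06 ± 1.26 (SD, n = 4), which is 33.4-fold lower in TAM, with a 95% confidence interval of -6.08 to -4.05 (limma, adjusted p = 0.0015). It was the third lowest mean of the 8905 genes and unnamed features tested, of which 0.46% passed in either direction, 0.337% as lower and 0.124% as higher. With TAM-2R and TAM1, the exchanged arrays, coded the other way, the mean was -2.33 and did not pass (limma, adjusted p = 0.711). That coding put Retnla at 5.47 on TAM-2R, opposite in sign to its values on TAM-b, TAM-3 and TAM-8.

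The Mrc1 log2 ratio of untreated TAM over PEC was -1.56 on TAM-b, -1.15 on TAM-2R, -0.30 on TAM-3 and 0.38 on TAM-8. It was lower in TAM on 3 arrays and higher on the fourth, the array of another print version. The mean was -0.66 ± 0.87 (SD, n = 4), which is 1.58-fold lower and smaller than the spread between the arrays (limma, 95% confidence interval -1.53 to 0.22, adjusted p = 0.456).

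**Figure D1:**
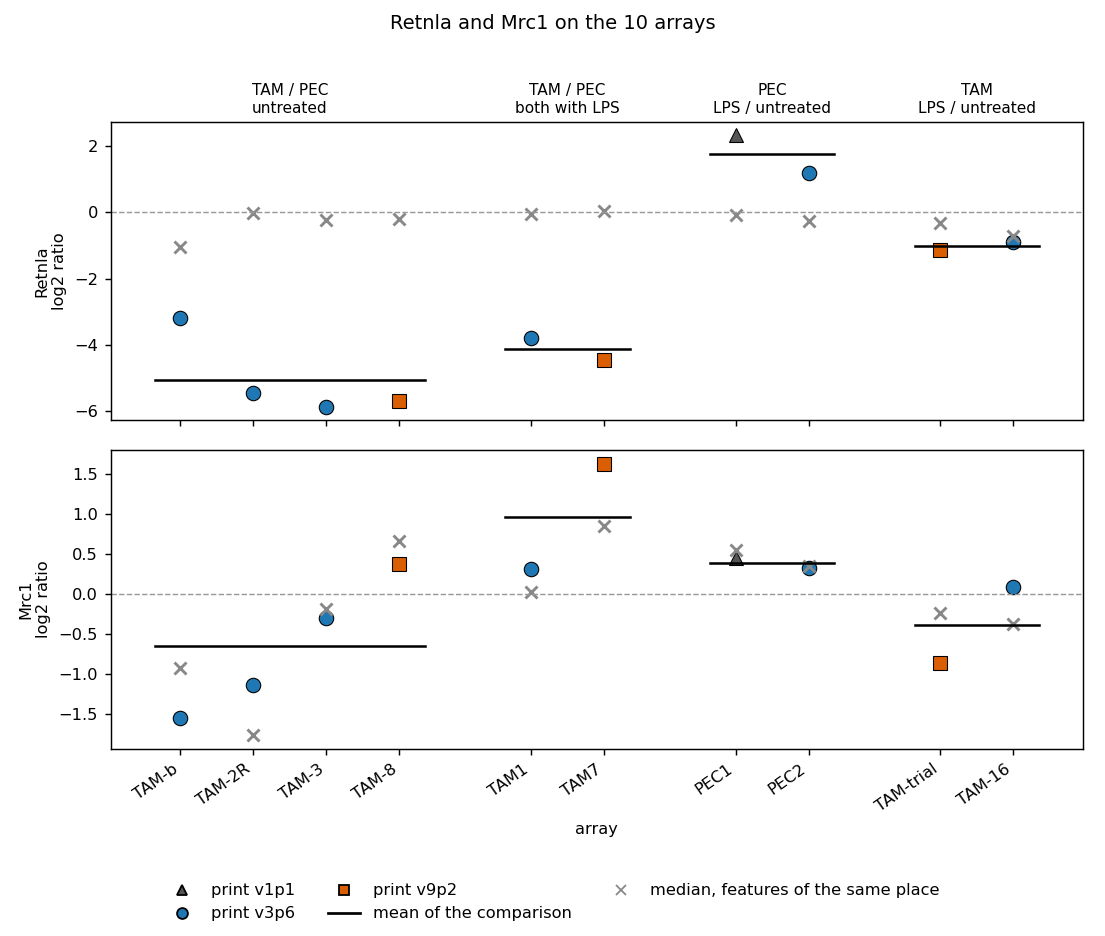
Log2 ratio of Retnla (top) and Mrc1 (bottom) on each of the 10 arrays, grouped by comparison, with the marker shape giving the print version, a line at the mean of the comparison and a cross at the median of the features at the same place as the gene. Retnla is between -5.88 and -3.18 on the arrays of untreated TAM against PEC, far from its crosses, whereas Mrc1 lies within 0.78 of its crosses on all 10 arrays.

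With LPS in both cell types, Retnla again had a strongly negative ratio, at the edge of the threshold, and the mean of Mrc1 lay above 0 without passing. The Retnla log2 ratio of TAM over PEC, both with LPS, was -3.81 on TAM1 and -4.46 on TAM7. Both lay within the range of the 4 untreated arrays. The mean was -4.14 ± 0.46 (SD, n = 2), which is 17.6-fold lower, with a 95% confidence interval of -5.57 to -2.70 (limma, adjusted p = 0.0529). In this comparison 0.0674% of all genes and features passed in either direction and 0.0561% passed as lower. Retnla ranked the ninth lowest and missed the threshold. When each of the 10 arrays was left out in turn, it passed only without TAM-b, an array of the untreated comparison (limma, adjusted p = 0.0134). With the other coding of TAM-2R and TAM1 the mean was -0.32.

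The Mrc1 log2 ratio of TAM over PEC, both with LPS, was 0.30 on TAM1 and 1.63 on TAM7. Both lay above 0, as did 32.9% of all genes and features on both arrays. The mean was 0.97 ± 0.94 (SD, n = 2), which is 1.95-fold higher (limma, 95% confidence interval -0.27 to 2.20, adjusted p = 0.738). Without TAM7 it was 0.30, and without TAM1 it was 1.63.

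Averaged over the untreated and the LPS comparison, Retnla was 24.2-fold lower in TAM, with a mean log2 ratio of -4.60 and a 95% confidence interval of -5.48 to -3.72 (limma, adjusted p = 7.69e-04). The call was lost with TAM-2R and TAM1 coded the other way (-1.33, limma adjusted p = 0.992) and with print v3p6 alone (-4.33, adjusted p = 0.396). It lay below 0 on 6 of 6 arrays, as did 4.97% of all genes and features. In this average 1.31% passed in either direction, 1.21% as lower and 0.101% as higher. Retnla was among the 36 genes and features, 0.404% of all, with a mean at or below -2 in both comparisons. For Mrc1 the average was 0.15 (limma, 95% confidence interval -0.60 to 0.91, adjusted p = 0.904), with 3 of 6 arrays below 0. That average was -0.02 without TAM-8 and -0.18 without TAM7.

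The members also differed from each other. The log2 ratio of Retnla minus that of Mrc1 was -1.63 on TAM-b, -4.32 on TAM-2R, -5.58 on TAM-3, -6.09 on TAM-8, -4.12 on TAM1 and -6.09 on TAM7. It was below 0 on every one of these 6 arrays, and TAM-b was the array with the smallest gap. The mean difference was -4.64 ± 1.71 (SD, n = 6; exact permutation test of all sign changes, two-sided, p = 0.03125, the smallest that 6 arrays allow). With the exchanged arrays coded the other way it was -1.82 (exact permutation test, two-sided, p = 0.406). The members and this test were chosen with earlier results of these data known. Retnla alone was below 0 on all 6 arrays, as were 4.97% of all genes and features. The p-value is therefore a description and not independent evidence of a difference.

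**Figure D2:**
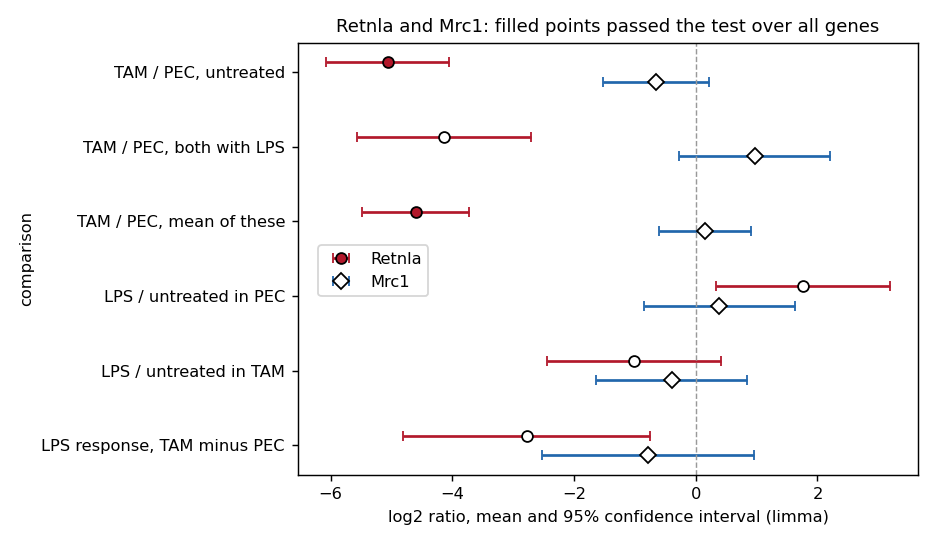
Mean log2 ratio of Retnla (circles) and Mrc1 (diamonds) in each comparison, with 95% confidence intervals from limma; filled symbols passed the test over all genes and features. The intervals of the genes do not overlap in TAM against PEC, where those of Retnla lie between -6.08 and -2.70.

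Within PEC, Retnla was higher with LPS on both arrays, and within TAM it was lower with LPS on both arrays, but neither mean passed the test. These comparisons addressed how each cell type responds to LPS. In PEC the Retnla log2 ratio of LPS over untreated was 2.34 on PEC1 and 1.19 on PEC2. The arrays agreed in sign and differed by about as much as the lower value itself. The mean was 1.76 ± 0.82 (SD, n = 2), which is 3.39-fold higher (limma, 95% confidence interval 0.33 to 3.20, adjusted p = 0.477). Only 0.0112% of all genes and features passed in this comparison, and 8.14% had an unadjusted p under 0.05. In TAM the ratio was -1.14 on TAM-trial and -0.89 on TAM-16, close together before place medians (below) were subtracted. The mean was -1.01 ± 0.18 (SD, n = 2), which is 2.02-fold lower (limma, 95% confidence interval -2.45 to 0.42, adjusted p = 0.845). No gene or feature passed in TAM with limma, a percentage of 0, and 497 (5.58%) had an unadjusted p under 0.05.

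The LPS response of Retnla in TAM minus that in PEC was -2.77 (limma, 95% confidence interval -4.80 to -0.75, adjusted p = 0.719). A loop fit with a dye term, in which all 4 comparisons inform each other, put it at -0.71 and the LPS response in PEC at 0.90 (limma, adjusted p = 0.819 and 0.895). No gene or feature passed for this difference with limma (0%), and 612 (6.87%) had an unadjusted p under 0.05. The pattern of Retnla, above 0 on both PEC arrays and below 0 on both TAM arrays, was shared by 787 genes and features, 8.84% of all.

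Mrc1 did not pass the test in either LPS comparison. In PEC its log2 ratio was 0.45 on PEC1 and 0.32 on PEC2, both slightly above 0, where 31.4% of all genes and features were above 0 on both. The mean was 0.39 ± 0.09 (SD, n = 2; limma, 95% confidence interval -0.85 to 1.63, adjusted p = 0.977). In TAM it was -0.87 on TAM-trial and 0.08 on TAM-16, on opposite sides of 0. That mean was -0.40 ± 0.68 (SD, n = 2; limma, 95% confidence interval -1.63 to 0.84, adjusted p = 0.947). The difference of the responses, TAM minus PEC, was -0.78 (limma, 95% confidence interval -2.53 to 0.96, adjusted p = 0.996).

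The 4 comparisons close a loop, so the difference between the cell types' LPS responses can be read on a second route, as the ratio of TAM over PEC with LPS minus that without. This reading was added after the values were seen. For Retnla the second route gave 0.92 (limma, 95% confidence interval -0.83 to 2.68, adjusted p = 0.802) against -2.77 on the direct route. For Mrc1 it gave 1.62 (limma, 95% confidence interval 0.11 to 3.14, adjusted p = 0.698) against -0.78. The routes had opposite signs for both genes. The direct route minus the second was -3.70 for Retnla (limma, 95% confidence interval -6.38 to -1.02, adjusted p = 1) and -2.41 for Mrc1 (limma, 95% confidence interval -4.72 to -0.10, adjusted p = 1).

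The values of Mrc1 moved with the place of its feature in the order of feature numbers. Where that place lay on the array was not determined. Place here is the position in runs of 96 features by number, and it accounted for 4.4% (TAM1) to 49.1% (TAM-b) of an array's variance. The 99 features at the place of Mrc1 had a median of -0.94 on TAM-b, -1.77 on TAM-2R and -0.20 on TAM-3, and of 0.66 on TAM-8. With LPS in both cell types that median was 0.03 on TAM1 and 0.85 on TAM7. Mrc1 minus the median of its place lay between -0.64 and 0.78 on all 10 arrays. With place medians subtracted from every feature, the mean of Mrc1 was -0.10 in untreated TAM against PEC and 0.53 with LPS (limma, adjusted p = 0.923 and 0.77). The 102 features at the place of Retnla had medians between -1.04 (TAM-b) and 0.06 (TAM7). With place medians subtracted, Retnla remained at -4.69 in untreated TAM against PEC (limma, adjusted p = 0.00818) and at -4.14 with LPS (limma, adjusted p = 0.0843). For LPS in TAM, the median at the place of Retnla was -0.30 on TAM-trial and -0.70 on TAM-16. Retnla minus that median was -0.83 on TAM-trial and only -0.18 on TAM-16. For LPS in PEC it was 2.415 on PEC1 and 1.428 on PEC2.

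Macrophage content and RNA per cell bear on both genes, since in bulk RNA fewer cells of a type and less RNA per cell cannot be told apart. Of 16 markers of macrophage identity, 12 were measured (Adgre1, Cd68, Itgam, Lyz2, Fcgr1, Fcgr3, Fcer1g, Tyrobp, Lgals3, Ctss, Aif1 and Spi1). The ratios do not show whether any of them was present, so the labelled cell type could not be checked against levels. Their median log2 ratio in TAM over PEC was -0.69 on TAM-b, 0.20 on TAM-2R, 0.08 on TAM-3, -1.29 on TAM-8, -1.59 on TAM1 and -1.66 on TAM7. In the average of both comparisons 10 of the 12 were below 0, where 52.4% of all genes and features were above 0. Lower past the threshold there were 2 of the 12, Cd68 and Lyz2, beside 1.21% of all. Of 10 fits that each left out 1 array, the Cd68 call held in 3 and the Lyz2 call in 2. Retnla lay below all 12 markers on each of the 6 arrays of TAM against PEC, at -5.96 to -2.22 from their median. Of 8905 genes and features, 2 did so (0.0225%), and the other was Fcna, which encodes the lectin ficolin A. For Retnla this rested on a small margin on TAM1, where it was at -3.81 and the lowest marker at -3.68.

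Mrc1 lay below the marker median on TAM-b, TAM-2R and TAM-3 and above it on TAM-8, TAM1 and TAM7. With LPS it was above 11 of the 12 markers on TAM1 and above all 12 on TAM7. Of all genes and features, 39.5% were above at least 11 of the 12 on both arrays. With LPS the markers were mostly above 0 in PEC, and in TAM the arrays differed. Their median was 1.75 on PEC1 and 1.32 on PEC2, with 11 of 12 means above 0 where 48.1% of all genes and features were. In TAM it was -1.95 on TAM-trial, with 12 markers below 0, and 0.19 on TAM-16, with 4 below 0. There 11 of 12 means were below 0, where 43.2% of all genes and features were above 0. No marker passed in either LPS comparison with limma. The mean of Retnla was above 0 in PEC and below 0 in TAM as well. Retnla lay 0.59 above the marker median on PEC1 and at -0.14 from it on PEC2, and 0.82 above it on TAM-trial and at -1.07 from it on TAM-16. The part of the markers in the LPS responses of Retnla was not tested.

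**Figure D3:**
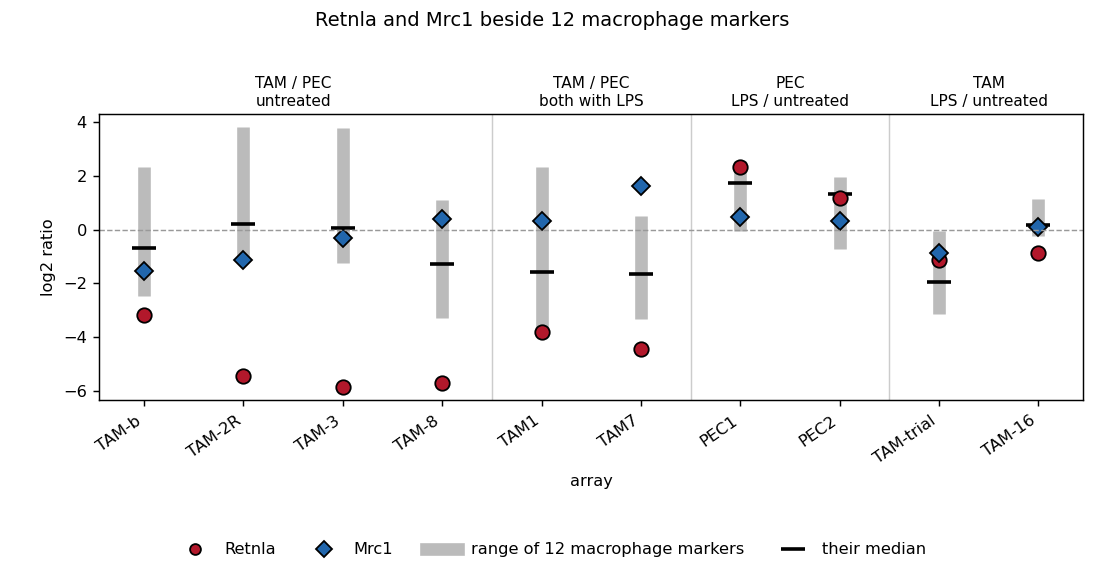
Log2 ratio of Retnla (circles) and Mrc1 (diamonds) on each array beside the range (bar) and median (line) of 12 macrophage markers. Retnla lies below the whole range on the 6 arrays of TAM against PEC, and Mrc1 lies above the whole range on TAM7.

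Markers of other cells were also measured in untreated TAM against PEC. The 5 measured of 16 eosinophil and mast cell markers were all below 0 (range -0.77 to -0.09, median -0.41). Of 8 measured neutrophil markers 7 were above 0 (range -0.24 to 2.66, median 0.98). The 9 endothelial markers had a median of 0.11 (range -1.02 to 1.47) and the 5 dendritic cell markers one of 0.03 (range -1.74 to 2.36). Of 13 fibroblast and adipocyte markers, 8 were above 0 (range -3.85 to 4.23, median 0.35). Lower past the threshold were 2 of the 13, Lpl and Fabp4, a lipase and a fatty acid carrier, beside 0.337% of all genes and features. The ratios do not show which cells their RNA came from. The 9 T and NK cell markers had a median of -0.03 and the 8 B cell markers one of -0.50. Lpl and Fabp4 were singled out after their values were seen. None of the other markers in these lists passed, and their part in the values of Retnla and Mrc1 was not tested.

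Retnla stood at the low end of the wider M2 list. Of 37 M2 marker genes, 19 were measured. In untreated TAM against PEC 1 of the 19 was lower past the threshold, Retnla itself, and none was higher. The median of the 19 was -0.64 beside -0.02 over all genes and features, with 14 of 19 below 0 where 48.7% of all were above 0. An unadjusted p under 0.05 was found for 5 of the 19 and for 14.3% of all genes and features. The genes next to Retnla were Igf1, a growth factor (mean -2.29, limma adjusted p = 0.0734), Tgm2, a transglutaminase induced by interleukin-4 (-1.63, adjusted p = 0.123), and F13a1, a subunit of coagulation factor XIII (-1.52, adjusted p = 0.0595). All 3 were below 0 on 4 of 4 arrays and missed the threshold. F13a1 was above 0 on both arrays with LPS, a change of sign between the comparisons that 4.12% of all genes and features shared in one direction or the other. Chil3, the chitinase-like protein Ym1 that is commonly read together with Retnla, had a mean of -0.39 ± 0.84 (SD, n = 4), with 3 of 4 arrays below 0.

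With LPS in both cell types none of the 19 passed with limma, 4 had an unadjusted p under 0.05 beside 8.99% of all, and 14 lay below 0 where 55.7% of all were above 0. Retnla was again the lowest of them and Mrc1 was the highest. In the average of both comparisons Retnla, Tgm2 and Igf1 were lower past the threshold, 3 of 19, and none was higher. The Tgm2 log2 ratio was -1.74 on TAM-b, -1.46 on TAM-2R, -0.69 on TAM-3, -2.63 on TAM-8, -1.97 on TAM1 and -2.52 on TAM7. It was below 0 on every one of these arrays, with an average of -1.94 (limma, adjusted p = 0.0225). The Igf1 ratio was -1.99 on TAM-b, -0.81 on TAM-2R, -3.66 on TAM-3, -2.71 on TAM-8, -1.87 on TAM1 and -2.21 on TAM7, also below 0 throughout, with an average of -2.17 (limma, adjusted p = 0.03). Igf1 had 2 features that differed, with means of -2.87 and -1.72 untreated and of -3.08 and -1.0 with LPS. Both calls were lost when TAM-b, TAM-8, TAM1 or TAM7 was left out. They were also lost with the exchanged arrays coded the other way, with only the arrays of TAM against PEC and with print v3p6 alone. The Tgm2 call was lost as well with the medians of feature places subtracted. The list was assembled with earlier results of these data known, so its direction is not independent evidence.

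**Figure D4:**
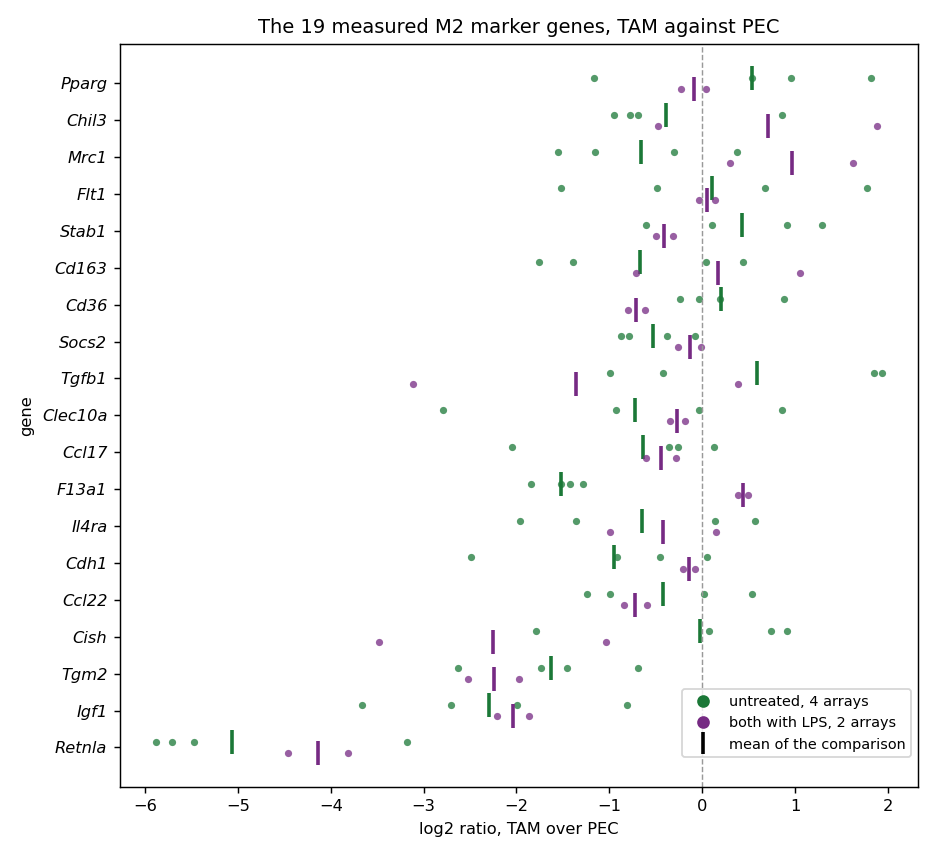
Log2 ratio of TAM over PEC for the 19 measured M2 marker genes, with points for the 4 untreated arrays and the 2 arrays with LPS and a bar at the mean of each comparison, ordered by the average of the means. Retnla lies farthest to the left in both comparisons, and Mrc1 is near the top with means of -0.66 and 0.97.

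In the LPS comparisons none of the 19 genes passed with limma, and 2 in PEC (8.14% of all genes and features) and 2 in TAM (5.58% of all) had an unadjusted p under 0.05. Retnla had the highest mean of the list in PEC and the lowest in TAM. Chil3 was at the other end in TAM, with a mean of 1.83, and at 0.06 in PEC. Tgfb1, a transforming growth factor, had means of 1.69 in PEC and 1.08 in TAM. Ccl22, a chemokine of the M2 list, had means of 1.26 and 0.66.

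No measured gene of the pathway upstream of Retnla was called, and few of all genes and features were. Of 26 genes of interleukin-4 and STAT6 signalling, 18 were measured, and none passed with limma in any of the 4 direct comparisons, in the average or in the difference of LPS responses. Of all genes and features, 0.46% passed in untreated TAM against PEC, 0.0674% with LPS in both cell types and 1.31% in the average. At shares this low, the lack of a call among 18 genes says little about the pathway. An unadjusted p under 0.05 was found for 2 of the 18 in untreated TAM against PEC (14.3% of all genes and features), for 4 with LPS in both cell types (8.99% of all) and for 4 in the average (11.9% of all). The 4 with LPS were Socs3 (mean -2.54), Cish (-2.26), Ptpn6 (-1.48) and Cebpa, each below 0 on both arrays, and none of them passed (limma, adjusted p from 0.437 to 0.548). The list median was -0.01 in untreated TAM against PEC and -0.15 with LPS in both cell types. Stat6, the transcription factor itself, had means of -0.26 and -0.50, and Il4ra, the receptor chain, had means of -0.65 and -0.43. Cebpa, a C/EBP transcription factor, had means of -0.96 and -1.01 and was below 0 on 6 of 6 arrays (limma, adjusted p = 0.17 for the average). Socs3, Socs1 and Cish encode feedback inhibitors of cytokine signalling, and Ptpn6 a tyrosine phosphatase. Socs3 had the highest mean of the list with LPS in PEC, 3.71 (limma, adjusted p = 0.407), and in TAM, 1.62, and Socs1 had means of 1.28 and 1.36.

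In a list of lectin and scavenger receptors, which holds the family of Mrc1 and other receptors, 14 of 27 genes were measured. In untreated TAM against PEC 1 was higher past the threshold, Axl, a receptor for apoptotic cells (2.18, limma adjusted p = 0.0451), and that call was lost when any single array was left out. Mrc2, the closest measured relative of Mrc1 and an endocytic collagen receptor, had means of -1.10 untreated and -0.60 with LPS. Ly75, the related receptor DEC-205 of dendritic cells, had means of 0.03 and 0.07. Marco, a scavenger receptor for bacteria, had means of -1.25 and -1.76, and Clec4a2, a C-type lectin, had means of 0.996 and 1.53. None of these 4 passed in either comparison. In the average Cd68, a scavenger receptor that is also a macrophage marker, was lower past the threshold (-2.62, limma adjusted p = 0.0366), a call that was lost without 7 of the 10 arrays in turn. Of the 4 resistin family genes only Retnla was measured.

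Likeness of pattern was measured as the cosine of the log2 ratios over the 10 arrays, a measure that does not change with the turning of an array, among 6794 other genes. The genes most like Retnla were Fcna (0.99), Tle5, a co-repressor (0.975), Slpi, a secreted protease inhibitor (0.969), F7, coagulation factor VII (0.965), and P2ry2, a nucleotide receptor (0.962). Fcna had the same sign as Retnla on 10 of 10 arrays, as did 1.28% of all genes and features. Its means were -5.23 in untreated TAM against PEC, -5.00 with LPS, 1.65 for LPS in PEC and -0.93 for LPS in TAM, each near that of Retnla. In untreated TAM against PEC all the genes named as most like Retnla passed (limma, adjusted p from 4.20e-04 to 0.0412), beside 0.46% of all genes and features. They were picked on the same arrays. The P2ry2 call was lost without any single array, and the Tle5 call without any but TAM-b. The genes most like Mrc1 were Tfap2a (0.914), Mcee (0.891), Smndc1 (0.888), Plrg1 (0.883) and Wdyhv1 (0.875), of which none passed in that comparison. Of all genes and features 0.0449% had the sign of Mrc1 on all 10 arrays. The cosine between Retnla and Mrc1 was 0.14, with the same sign on 6 of 10 arrays. The 10 arrays share conditions, a platform and print versions, so these values are descriptions and carry no test.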

How the data were processed

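Total RNA of 2 conditions was set against each other on each of 10 spotted cDNA arrays. For each feature the authors deposited a log ratio per array, taken here as log2 of channel 2 over channel 1. Base 2 was taken because the largest absolute deposited value, 11.687, is a ratio of 3297 in base 2 and of 119014 in base e. How images were analysed and values background-corrected and normalized, the dyes and the log base are not given in the sources. Without channel intensities, dim spots could not be filtered. Array medians lay between -0.199 and 0.022.

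Per the labels, TAM-2R and TAM1 had exchanged channels and were turned. Of 9596 features, 7486 had 1 symbol, 483 several and 1627 none. Features of 1 gene were averaged, which gave 8905 genes and features. limma 3.58.1 in R 4.3.3 (lmFit, eBayes) fitted 1 mean per comparison on all 10 arrays, with 6 residual and 3.841 prior degrees of freedom. P-values are two-sided and Benjamini-Hochberg adjusted over all 8905 in each comparison (threshold 0.05). SDs are over arrays, and intervals come from the fit. The fit was also run on simulated ratios with independent normal noise and no place effect. That run cannot show how the place of a feature affects the calls. The members, the gene lists and the tests were chosen with earlier results of these data known. Genes could be named if they were members, were measured in the lists described, or were among the 5 most like each member; other markers were named as listed. Alternatives covered the coding, a dye term, a loop fit, scaling, print version, feature position, single features, robust eBayes and leaving out each array.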

Additional observations from a re-analysis of the deposited data

Results flagged for a closer look

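Among 43 genes of the M2, interleukin-4 and STAT6, resistin, and lectin and scavenger receptor lists, 5 had 1 array of untreated TAM against PEC that stood apart from the other 3. Chance alone gives this in about 1 in 20 genes. The log2 ratio of Retnla was -3.18 on TAM-b, where the others lay between -5.88 and -5.47. Cebpa also stood apart on TAM-b, at -0.15 beside -1.26 to -1.17. Chil3 and Tyk2 stood apart on TAM-8, with 0.86 beside -0.95 to -0.69 for Chil3 and -0.11 beside 1.005, 1.077 and 1.10 for Tyk2, a Janus kinase of cytokine receptors. Ppargc1b, a transcriptional co-activator, stood apart on TAM-3, at -3.54 beside 0.38 to 0.94.

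Opposite LPS responses, with both PEC arrays on one side of 0 and both TAM arrays on the other, were seen for 7 of these genes. The response in TAM minus that in PEC was -2.77 for Retnla, -3.30 for Cd68, -2.26 for Ptpn6, a tyrosine phosphatase, -1.27 for Marco, -0.88 for Cd163, a haemoglobin scavenger receptor, 0.76 for Il13 and 0.48 for Il13ra1, the cytokine and its receptor chain. The first 5 were above 0 in PEC and below 0 in TAM, as were 8.84% of all genes and features. None of these differences passed when tested with limma over all genes and features. For 2 genes the ratio of TAM over PEC had one sign on all untreated arrays and the other on both arrays with LPS. With LPS minus untreated, it was 1.96 for F13a1 and -1.08 for Scarb1, the high-density lipoprotein receptor, and neither passed with limma. Such a change of sign was seen in 4.12% of all genes and features.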

How the results depend on the processing

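Retnla kept its direction in untreated TAM against PEC under all 10 other settings and without each array in turn (-5.69 to -4.79). It missed the threshold with the other coding of TAM-2R and TAM1 (-2.33), with only the arrays of that comparison (-5.06, limma adjusted p = 0.079) and with print v3p6 alone (-4.84). Averaged over both comparisons it missed it with the other coding (-1.33) and print v3p6 (-4.33), and ranged from -4.91 to -4.44 without single arrays. With LPS in both cell types it passed with the loop fit (-5.17), with scaled arrays (-6.00) and with print as a random block (-4.15), and ranged from -4.46 to -3.81 without single arrays. The estimated correlation of arrays within a print version was -0.029, so the random block found no shared print effect to allow for. Values on scaled arrays are in units of each array's median absolute deviation and cannot be set beside log2 ratios. Retnla minus Mrc1 was -1.82 with the other coding. Values that changed sign were LPS in TAM for Retnla with the loop fit (0.19), its change of the TAM to PEC ratio with LPS on scaled arrays (-0.83), and, for Mrc1, LPS in PEC with a dye term (-0.07), the loop fit (-0.66) and place medians subtracted (-0.06), LPS in TAM with the loop fit (0.02) and print v3p6 (0.08), the average with the loop fit (-0.11) and print v3p6 (-0.35), and the difference of LPS responses with the loop fit (0.68). Without single arrays, Mrc1 ranged from -0.87 to 0.08 for LPS in TAM and from -0.18 to 0.49 for the average. Counts past the threshold, 41 in untreated TAM against PEC, were 0 with the other coding, 17 with a dye term, 26 with the loop fit, 10 scaled, 2 with own arrays only, 0 with print v3p6 and 6 to 24 without single arrays. For LPS in PEC, 1 became 2 with the other coding, 0 with the loop fit, 3 scaled, 0 with own arrays or print v3p6, 5 with place medians subtracted and 1 to 85 without single arrays. For LPS in TAM, 0 became 1 scaled and 0 to 3 without single arrays. With LPS in both cell types, 6 became 0 with the other coding, 131 with the loop fit, 81 scaled, 0 with own arrays or print v3p6, 14 with print as a random block, 16 with place medians subtracted and 3 to 11 without single arrays. The count of lower M2 genes, 1, was 0 with the other coding, own arrays or print v3p6, and 2 with print as a random block. Fewer arrays entered the fits on own arrays and print v3p6; for the other settings the cause was not tested. No paired analysis was possible because the comparisons share fewer than 2 array numbers. Channel signals were not used here, so signal over background is unknown.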
